A study of Mus musculus with 31 samples.

Results

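The events described here are cassette exons in long intronic stretches, chosen by the summed length of both introns and the exon, so that 1 of the introns may be short. A cassette exon is an internal exon that is either kept between its neighbours or left out, and its span is the distance between the flanking exons, so that it holds both introns and the exon itself. Events of the cassette type whose listed position spanned at least 15000 bp were taken. Span alone decided which events qualified, but this choice was made with earlier results of these data known. There were 395 such events in 349 genes, of 1853 cassette events and 1922 events of every type measured. Their spans ran from 15012 to 737288 bp with a median of 30042 bp, against a median of 5715 bp over all cassette events, and 103 of them spanned at least 50000 bp. In 39 genes more than 1 event qualified, which took in 85 of the events, so events of a gene are not independent of each other. Positions were shared by 2 events in 5 cases, and in Nrxn2 and Foxn3 the paired rows held identical counts in every mouse.

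Exclusion of each exon was measured in the cortex of 31 mice by RASL-seq, which ligates a pair of probes across a chosen exon junction and counts the ligated product by sequencing. The short form joins the flanking exons and the long form joins the cassette exon to a neighbour, and exclusion is the short form as a percentage of both. R6/2 mice, which carry a transgenic fragment of the mutant human huntingtin gene (HTT), were taken at 3 months as HD mice (n = 3) with wild types (WT, n = 3). Knock-in mice carry the expansion in their own huntingtin gene: the Q150 line was taken at 7 months as WT (n = 5), HET with 1 allele of 150 glutamines (n = 4) and HOMO with 2 such alleles (n = 4), and the Q175 line at 18 months as WT (n = 5), HET with 1 allele of 175 glutamines (n = 4) and HOMO with 2 (n = 3). The WT alleles of both knock-in lines encode 7 glutamines. Each line had WT mice of its own, and line, age and file set cannot be told apart. The labels of the knock-in mice are at odds, with Q150 in every title and Q175 in every mutant genotype, so the line, and with it the age, was taken from the number of glutamines in the genotype. The samples were bulk cortex, so fewer cells of a type and less RNA per cell cannot be told apart, and R6/2 expresses only the fragment beside the normal mouse gene.

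Splicing across a long intron leaves the splicing machinery to pick short splice sites out of a long stretch of transcript, and proteins bound to the intron can help or hinder the choice of the exon. Brain genes have many of the longest introns in the genome, among them the neurexins, presynaptic adhesion proteins whose alternative exons change the partners they bind. TDP-43, an RNA-binding protein that prefers runs of UG in RNA, is known for binding within long introns of brain transcripts.

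The exons on which the results below turn are shown first, each as the long form with 20 bases of the exon before and after it. The skipped exon is in capitals and the flanking exon bases, which the short form joins directly, are in lower case. The sequences are GENCODE M21 transcripts on the GRCm38 build, read 5′ to 3′ on the strand of the gene. The first pair are the 90-base exon (chr12:90199147-90199236, plus strand) and the 27-base exon (chr12:89517906-89517932, plus strand) of Nrxn3, which moved in opposite directions in R6/2 mice. The others are the Ank2 exon (chr3:127248134-127248232, minus strand), the Reps2 exon (chrX:162512679-162512732, minus strand), the Cpeb2 exon (chr5:43268869-43268892, plus strand) and the Arhgef12 exon (chr9:43040540-43040596, minus strand), which rose in all 3 models, and the Rsrc1 exon (chr3:67082536-67082709, plus strand), which had the largest fall. All 7 are coding.
Nrxn3 exon of 90 bases: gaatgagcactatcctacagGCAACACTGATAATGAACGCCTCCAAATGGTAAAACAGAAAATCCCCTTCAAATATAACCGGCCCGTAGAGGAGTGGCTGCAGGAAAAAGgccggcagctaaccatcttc
Nrxn3 exon of 27 bases: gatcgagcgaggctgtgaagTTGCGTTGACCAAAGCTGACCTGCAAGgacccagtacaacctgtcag
Ank2 exon of 99 bases: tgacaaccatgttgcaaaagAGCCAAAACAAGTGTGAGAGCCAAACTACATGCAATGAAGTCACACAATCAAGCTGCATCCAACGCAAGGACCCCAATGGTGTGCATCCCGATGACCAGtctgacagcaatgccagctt
Reps2 exon of 54 bases: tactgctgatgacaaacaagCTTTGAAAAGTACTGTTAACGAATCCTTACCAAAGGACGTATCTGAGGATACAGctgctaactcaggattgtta
Cpeb2 exon of 24 bases: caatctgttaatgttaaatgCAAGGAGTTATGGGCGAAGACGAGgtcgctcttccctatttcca
Arhgef12 exon of 57 bases: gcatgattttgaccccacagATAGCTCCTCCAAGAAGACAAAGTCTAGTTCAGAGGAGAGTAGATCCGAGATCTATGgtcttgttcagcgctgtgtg
Rsrc1 exon of 174 bases: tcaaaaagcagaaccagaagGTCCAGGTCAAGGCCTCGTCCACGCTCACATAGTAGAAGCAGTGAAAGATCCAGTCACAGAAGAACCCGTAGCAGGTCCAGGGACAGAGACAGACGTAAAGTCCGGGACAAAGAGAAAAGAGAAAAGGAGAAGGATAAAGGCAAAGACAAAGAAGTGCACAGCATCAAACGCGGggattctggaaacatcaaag

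The listed positions were not those of GRCm38, so exons were matched by the distance between annotated flanking exons. Flanks at exactly the listed distance were found for 382 of the 395 events, and 323 of them enclosed a single annotated exon. The median exon was 90 bases long, the same as in cassette events of shorter span, with quartiles of 59 and 133 bases. The median upstream intron was 16599 bp and the median downstream intron 13692 bp. Both introns reached 5000 bp in 218 of 323 events (67.5%), against 2.24% of the shorter-span events, and the upstream intron was the longer in 180 (55.7%). The exon was wholly coding in 68.1% against 77.8% of the shorter-span events, and of the coding exons 73.2% against 73.9% had a length divisible by 3. Exons of at most 27 bases made up 2.79% against 5.31%. The letters TGTGT, searched on the strand of the RNA only and within the exon, were found in 38 of 323 exons (11.8%), against 10.2% of all cassette exons matched.

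In WT mice these exons were included more than shorter-span ones. Median exclusion over the events was 33.3%, 33.8% and 35.7% in the WT mice of the R6/2, Q150 and Q175 sets, where shorter-span cassette events stood at 43.3%, 41.3% and 42.9%. Of the 355 events listed in the R6/2 set, 94 lay under 10%, 210 between 10% and 90% and 51 over 90%. Total counts per mouse ran from 2171709 to 5256516, and the long-span events held 19.7% to 20.2% of the counts of each set. Of the cell type markers looked for, Ndrg2 was the only astrocyte marker measured (1 of 8). Its summed level was 17170 to 18100 counts per 1000000 counts in R6/2 WT and 8831 to 9939 in HD. The neuronal markers measured, 2 of 11, summed to 28930 to 33790 in R6/2 WT and 23340 to 27880 in HD, and 2 of 8 oligodendrocyte markers gave 10880 to 13270 and 9001 to 13070. In the Q150 set Ndrg2 ran from 11700 to 16600 in WT and from 9067 to 14270 in HOMO, and in the Q175 set from 13280 to 16640 and from 9679 to 11660. The neuronal sum was 30430 to 36530 in Q150 WT and 27120 to 30690 in HOMO, and 26060 to 33680 and 28510 to 33030 in Q175, while the oligodendrocyte ranges of WT and HOMO mice overlapped in both sets. Pecam1 was the only endothelial marker measured (1 of 3). In the event that all sets hold it ran from 45.8 to 80.6 in R6/2 WT and 33.4 to 57.6 in HD. Values of this event were 42.1 to 97.3 in Q150 WT and 52.4 to 138 in HOMO. In Q175 they were 103 to 117 in WT and 86.8 to 116 in HOMO mice. Another Pecam1 event, measured in the Q175 set only, ran from 1026 to 1230 in WT and 886 to 1061 in HOMO mice. No microglial or striatal marker was measured (0 of 6 each), and the part of cell makeup in the results was not tested.

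In R6/2 cortex the long-span exons changed in both directions, with 45 rises and 31 falls, where 315 of 406 changes of shorter-span exons were rises. Of 355 long-span events, 76 (21.4%) changed at an adjusted p under 0.05 in limma, against 28.6% of all events tested. Exclusion was higher in HD for 45 of them (12.7%, against 21.1% of all events) and lower for 31 (8.73%, against 7.46%). Among the 1323 shorter-span cassette events 315 (23.8%) were higher and 91 (6.88%) lower. The median change in log2(short/long) was 0.01 over the long-span events and 0.18 over all events, and 50.7% of the long-span changes were positive. Centred on the median event, 33 of 81 long-span calls were higher, in place of 45 of 76. Centring takes the median over all events from each mouse, so where that median rises it removes rises from any group of events. The centred count over all events is not reported here, so centred counts say nothing particular to long spans. The same holds for the centred counts of the other models. The share called was 35.9% for spans under 2500 bp, 29.1% from 2500 to 5000 bp, 28.4% from 5000 to 15000 bp and 27.9% from 15000 to 20000 bp. From 20000 bp upward, 16 of 90, 17 of 85, 11 of 55 and 8 of 39 events were called in successive bins, and the rises and falls there were near equal, with 9 and 7, 8 and 9, 6 and 5, and 4 and 4.

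**Figure D1:**
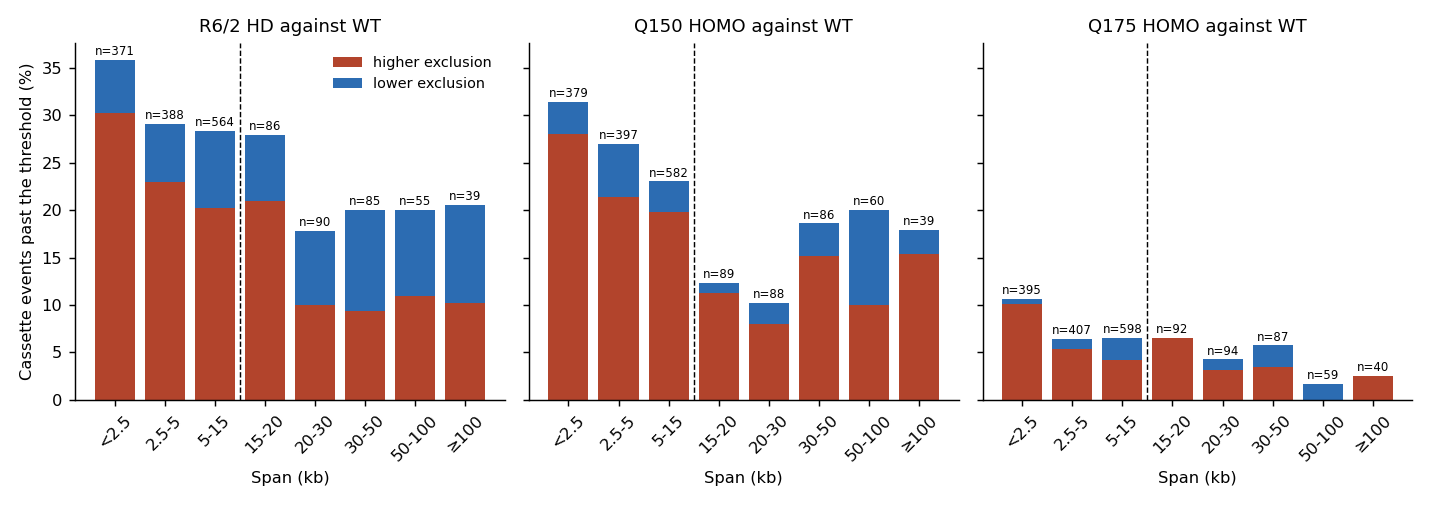
Share of cassette events with adjusted p under 0.05 (y axis, percent) by span between the flanking exons (x axis, bins), for each mutant group against its WT mice, split into higher and lower exclusion. In R6/2 the share called falls from 35.9% in the shortest bin to 20.5% in the longest, and the excess of higher over lower exclusion seen at short spans is not present from 20000 bp upward.

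Within the long-span events, R6/2 calls were divided by the length of the shorter intron, beside 28.6% of all events called, 21.1% higher and 7.46% lower. Where both introns were at least 5000 bp, 31 of 196 events (15.8%) changed in R6/2, 11 with higher and 20 with lower exclusion, and the median change was -0.02. Where the shorter intron was under 5000 bp, 31 of 94 (33.0%) changed, 24 with higher and 7 with lower exclusion, and the median was 0.19, close to that of all events. In Q150 HOMO mice, where 23.9% of all events changed, the same groups gave 29 of 201 (14.4%, 20 higher and 9 lower) and 17 of 94 (18.1%, 13 higher and 4 lower). In Q175 HOMO mice, where 7.07% of all events changed, they gave 8 of 202 (5 higher and 3 lower) and 5 of 101 (all 5 higher). Exons holding TGTGT had 3 rises and 5 falls of 33 in R6/2 and 1 rise and 4 falls of 35 in Q150 HOMO, and exons without it had 32 and 22 of 257, and 32 and 9 of 260. In Q175 HOMO none of 37 with it and 13 of 266 without it changed. Coding exons of a length divisible by 3 changed in 35 of 148 events in R6/2, 30 of 149 in Q150 HOMO and 6 of 147 in Q175 HOMO, and other coding exons in 10 of 55, 7 of 57 and 4 of 57. The groups were not tested against each other.

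Averaged over the events of a mouse, exclusion in R6/2 HD was slightly higher than in WT, by an amount that depended on how the events were summarised. The 3 WT mice stood at 41.3%, 41.5% and 41.7%, with a mean of 41.5% ± 0.187 (SD, n = 3), and the HD mice at 41.8% ± 0.325 (SD, n = 3), 0.351 points higher. With 1 mouse left out this ran from 0.182 to 0.506 points. As the median over events the difference was 1.06 points, and as a share of summed counts 0.969. Only 2 of 3 HD mice lay above every WT mouse. Over the shorter-span cassette events the same mice went from 46.1% ± 0.186 to 48.3% ± 0.252, 2.18 points higher, and all 3 HD mice lay above every WT mouse. In the Q150 set the long-span mean was 41.5% ± 0.306 in WT (n = 5), 42.1% ± 0.276 in HET (n = 4) and 42.8% ± 0.351 in HOMO (n = 4), and 3 of 4 HET and 4 of 4 HOMO mice exceeded every WT mouse. The rise in HOMO was 1.26 points, against 2.06 over shorter spans. In the Q175 set the rise was 0.268 points in HET and 0.559 in HOMO, against 0.303 and 0.71 over shorter spans, with 2 of 3 HOMO mice above every WT mouse over the long spans. With 1 mouse left out the long-span rise ran from 0.0873 to 0.413 points in Q175 HET and from 0.434 to 0.697 in Q175 HOMO. As the median over events the rise was 1.97 points in Q150 HOMO and 1.5 in Q175 HOMO. These means are given as a description.

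**Figure D2:**
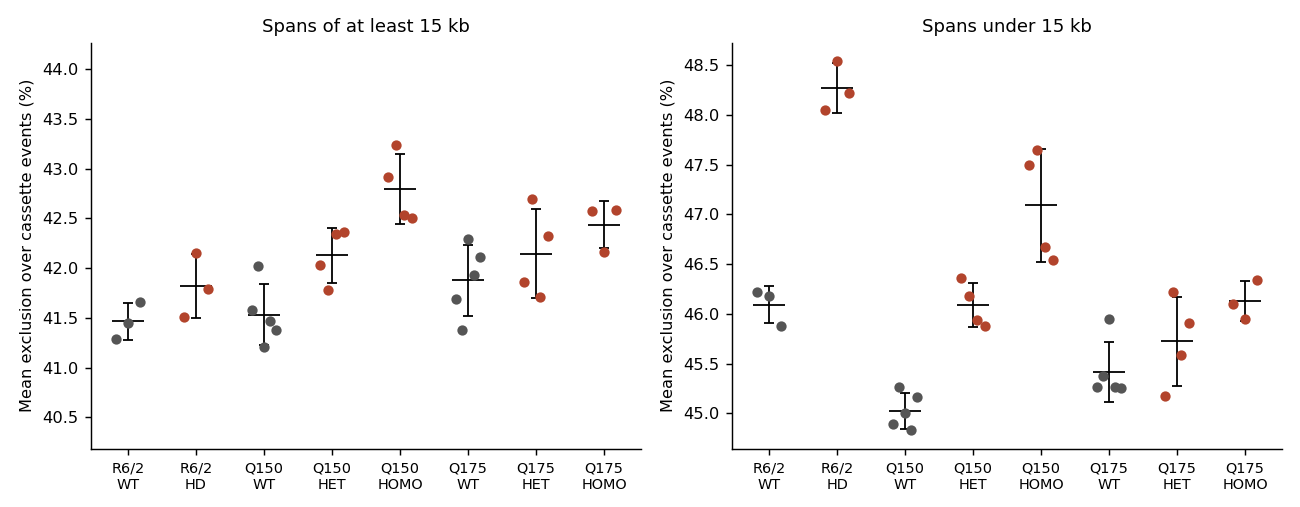
Mean exclusion per mouse (y axis, percent) over long-span and over shorter-span cassette events, with 1 point a mouse and the group mean and SD, in the groups of the 3 sets. The panels share 1 scale length but not 1 range, and the axes do not start at 0. R6/2 HD mice lie 0.351 points above WT over long-span events and 2.18 points above over shorter-span events.

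Changes of single events are given in log2(short/long) with their SE, and a positive change is more skipping. The 90-base exon of Nrxn3, a neurexin, was kept more often in R6/2 HD mice. Its exclusion was 23.7%, 17.3% and 20.1% in R6/2 WT and 7.78%, 8.31% and 6.26% in HD. The groups did not overlap, and the change was -1.66 ± 0.19 on the log2 scale (SE, limma adjusted p = 5.85e-05). The 27-base exon of the same gene, with introns of 4793 and 14958 bp, went the other way in the same mice. Its exclusion was 81.5%, 80.0% and 78.5% in WT and 86.0%, 89.5% and 88.4% in HD, a rise of 0.88 ± 0.14 (adjusted p = 0.000617). The Nrxn2 event of 16977 bp, which 2 rows with the same counts report, stood at 41.5% ± 1.95 and 38.3% ± 12.2 and did not pass the test (adjusted p = 0.693).

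In the Q150 set the Nrxn3 exon of 90 bases stood at 20.01% ± 3.50 in WT, 12.2% ± 3.56 in HET and 10.7% ± 3.79 in HOMO mice. Both mutant groups lay below every WT mouse, with changes of -0.88 ± 0.23 (adjusted p = 0.0315) and -1.11 ± 0.23 (adjusted p = 0.00119). The HET call was lost in 7 fits that left out a mouse (adjusted p up to 0.124 over all alternatives). In the Q175 set it was 18.2% ± 4.04 in WT (n = 5) and 12.7% ± 1.63 in HOMO (n = 3), a fall of -0.60 ± 0.16 (adjusted p = 0.0168) in groups that overlapped, lost without WT mouse 9 or 10 or HOMO mouse 1 or 3 (adjusted p up to 0.171 over all alternatives). The 27-base Nrxn3 exon changed in neither knock-in line, at 0.00 in Q150 HOMO (adjusted p = 0.999) and -0.08 in Q175 HOMO (adjusted p = 0.737), and its R6/2 change was larger by 0.87 ± 0.19 and 0.96 ± 0.19 in the test of the difference (adjusted p = 0.00153 and 0.000665).

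**Figure D3:**
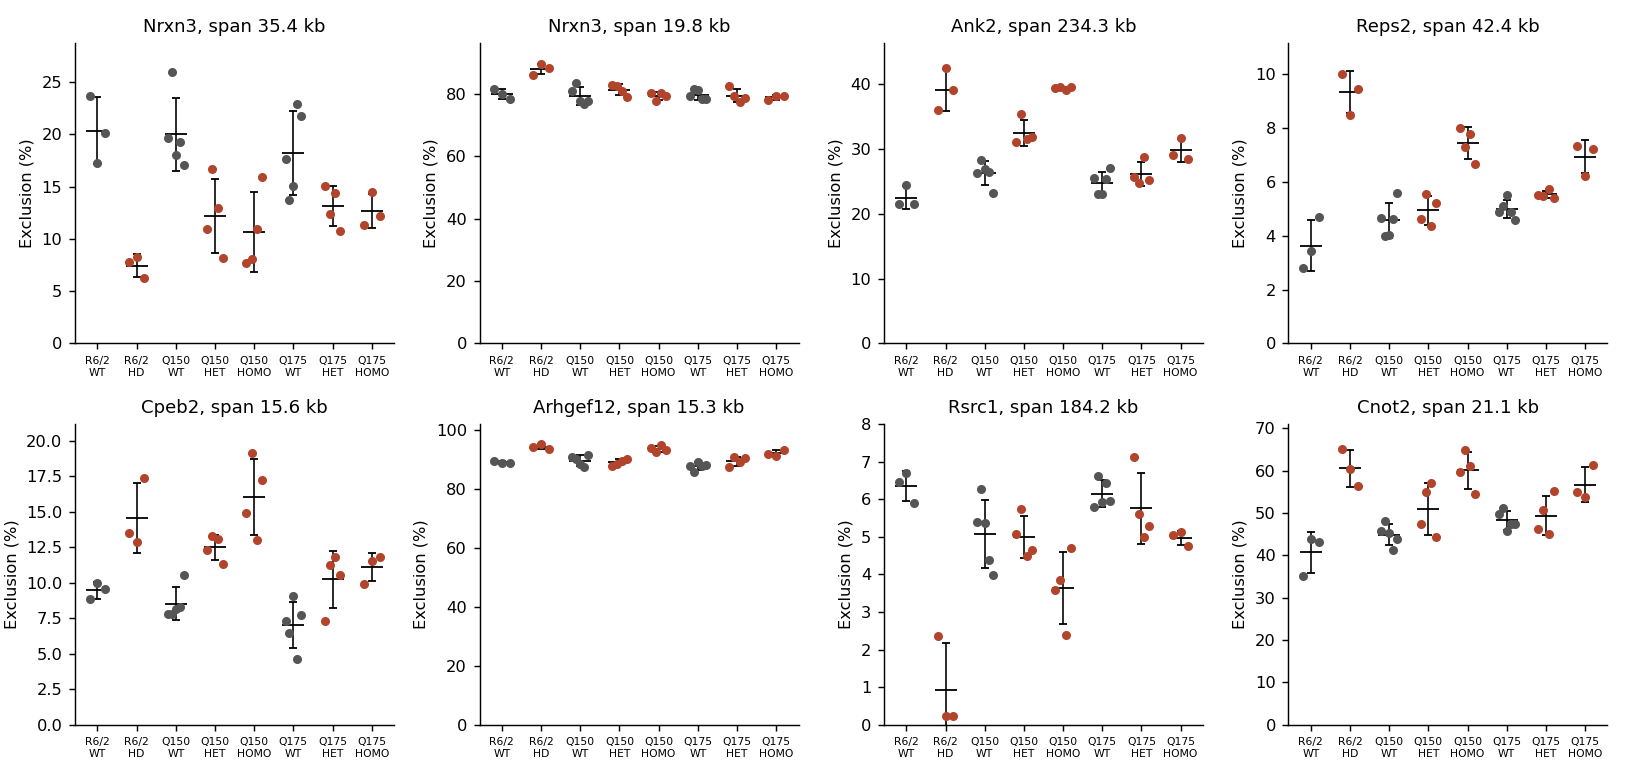
Exclusion (y axis, percent, starting at 0 with a range of its own in each panel) per mouse for 8 events, with 1 point a mouse, grey for WT and red for mutant groups, and bars for the mean and SD (n = 3 to 5 a group). The Ank2, Reps2, Cpeb2, Arhgef12 and Cnot2 exons rise in R6/2 HD mice and in the HOMO mice of both knock-in lines, and Rsrc1 falls furthest in R6/2.

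The largest rises in R6/2 were in Grik1, Diap1, Pcnx and Fgf12. Grik1 encodes a kainate receptor subunit, and its 87-base exon had exclusion of 13.1%, 42.1% and 17.6% in WT and 66.7%, 65.8% and 62.2% in HD. The groups did not overlap, the change was 2.62 ± 0.52 (adjusted p = 0.00243), and the event rested on 30 to 85 counts a mouse. Diap1 (now Diaph1), an actin-nucleating formin, went from 3.56%, 12.2% and 3.64% to 15.3%, 23.4% and 17.5%, a rise of 1.94 ± 0.44 (adjusted p = 0.00553). Pcnx, a multipass membrane protein, rose by 1.69 ± 0.27 from 0.926% ± 0.298 to 2.89% ± 0.387. Fgf12, an intracellular relative of the fibroblast growth factors that binds sodium channels, spans 354757 bp here and went from 30.9%, 36.7% and 33.9% to 62.3%, 60.5% and 62.9%. That is a change of 1.66 ± 0.25 (adjusted p = 0.0004) between groups far apart. Efnb2, the ligand ephrin-B2, went from 2.44% ± 0.335 to 6.52% ± 0.661. Reps2, an adaptor in endocytosis, went from 3.63% ± 0.964 to 9.33% ± 0.771. Aof2 (now Kdm1a), a histone demethylase, went from 28.7% ± 1.40 to 49.2% ± 2.52. Cacnb4, a calcium channel beta subunit, went from 12.96% ± 2.53 to 26.4% ± 5.97 and did not pass with HD mouse 869 left out (adjusted p = 0.0712). In all 8 the HD mice lay above every WT mouse.

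The largest falls in R6/2 were led by Rsrc1, whose protein has arginine-serine repeats as splicing factors do. Its 174-base exon lies between introns of 85945 and 98119 bp. Exclusion was 6.46%, 6.70% and 5.92% in WT and 2.35%, 0.228% and 0.221% in HD, on 1568 to 4516 counts of both forms a mouse. At 0.228% and 0.221% the short form rested on few counts, near the lowest count listed for any event, which was 4. The size of the fall is therefore imprecise. The fall of -3.73 ± 0.67 (adjusted p = 0.00125) was shared by all 3 HD mice, of which the first lay well above the other two. Atpbd4 (now Dph6), an enzyme of diphthamide synthesis, had 34.9%, 29.0% and 30.2% in WT and 13.8%, 12.6% and 1.00% in HD, a change of -2.86 ± 0.76 (adjusted p = 0.0133, or 0.0813 without the variance trend), with 1 HD mouse well below the other two. Nipa2, a magnesium transporter, went from 5.03% ± 1.71 to 1.54% ± 0.738. Pag1, a membrane adaptor of Src-family kinases, went from 69.8% ± 3.81 to 49.1% ± 5.73. Xiap, an inhibitor of caspases, went from 44.1% ± 7.24 to 24.98% ± 2.16 and missed the threshold without WT mouse 6 (adjusted p = 0.0549). The uncharacterised 2010300C02Rik, on 32 to 59 counts in WT, went from 40.8% ± 15.6 to 15.99% ± 2.16 and was lost without WT mouse 3 or 6 (adjusted p up to 0.0698). With the 90-base Nrxn3 exon these are among the 8 largest falls, and in all of them the HD mice lay below every WT mouse.

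**Figure D4:**
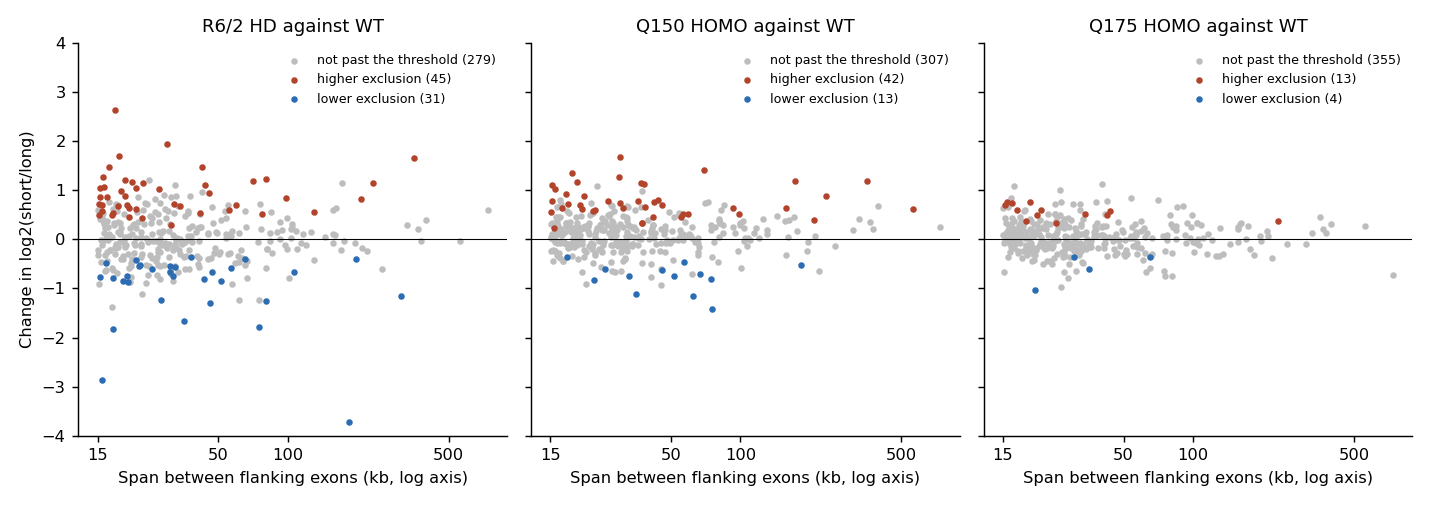
Change in log2(short/long) (y axis) against span between the flanking exons (x axis, kb, log axis) for each long-span event in 3 comparisons, coloured by the limma test (adjusted p under 0.05). In R6/2 the 45 rises and 31 falls lie on both sides of 0 at every span, and in the Q150 and Q175 HOMO mice 42 of 55 and 13 of 17 calls are rises.

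By gene group, R6/2 calls among the long-span events were spread over most lists, beside 21.1% rises and 7.46% falls over all events. Of 13 events in RNA-binding and splicing genes, 4 rose and 4 fell, with a median change of 0.21 against 0.18 over all events. Cnot2 and Cnot4 of the CCR4-NOT deadenylase complex rose, Cnot2 in 1 event of 2, by 1.17 ± 0.19 from 40.7% ± 4.88 to 60.6% ± 4.38, and Cnot4 by 1.03 ± 0.22 from 14.8% to 25.9%. A2bp1 (now Rbfox1), a neuronal splicing factor, rose by 0.72 ± 0.17 and Cpeb2, a translational regulator, by 0.69 ± 0.20. Mbnl2, a splicing factor of the muscleblind family, fell by 0.56 on the log2 scale from 87.0% to 81.9%, and Eif4g3, a translation initiation factor, fell by 0.87 from 81.1% to 70.2%. Of 25 events in adhesion and guidance genes 3 rose and 2 fell: beside Nrxn3, with a rise and a fall, Cadm1 rose by 0.67 ± 0.16 and Ptprt, a receptor phosphatase, by 0.54 ± 0.17. On the list of long-intron TDP-43 targets, which held 5 events, 1 rose and 2 fell, among them those of Nrxn3, and Nlgn1 (-0.24, adjusted p = 0.494) did not pass.

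Among 23 events in synaptic scaffold and vesicle genes in R6/2, 5 rose and 1 fell, with a median of 0.06. The share that rose is close to the 21.1% over all events, where 7.46% fell. Rims2, which organises the active zone where vesicles fuse, had exclusion of 79.2%, 75.8% and 79.5% in WT and 88.9%, 89.3% and 88.4% in HD, a rise of 1.15 ± 0.18 (adjusted p = 0.000497). Both Rims1 events rose, by 0.82 ± 0.16 from 2.91% to 5.03% across 208976 bp and by 0.55 ± 0.16 from 67.35% to 74.99% across 130345 bp, and they share a flanking position. Erc2, also of the active zone, rose by 0.71 ± 0.13 in its shorter event, from 79.3% ± 2.31 to 86.2% ± 1.48. Its longer event stood at 1.14 ± 0.43, from 43.55% ± 11.2 to 62.6% ± 11.7, in groups that overlapped, and did not pass (adjusted p = 0.0676). The change of the longer event differed from that in Q150 HOMO by -0.04 ± 0.49 (adjusted p = 0.98). Dlgap1, a postsynaptic scaffold, rose by 0.83 ± 0.15 and Dennd1a, of clathrin-mediated uptake, fell by 0.66 on the log2 scale.

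Of 10 events in cytoskeletal genes 3 rose and 1 fell. The lists that follow are small, and over all events 21.1% rose and 7.46% fell. Besides Diap1, the membrane-skeleton adaptors Ank2 and Ank3 rose, Ank2 by 1.15 ± 0.12 (adjusted p = 3.32e-05) and Ank3 by 0.44 ± 0.15 at 96.9% in WT, while Dync1i1, a dynein intermediate chain, fell by 0.66 from 16.8% to 11.4%. Of 14 events in channels, receptors and transporters 3 rose and 2 fell. Gria3, an AMPA receptor subunit, rose from 91.0% ± 0.313 to 93.5% ± 0.231 (lost without WT mouse 4 or 6 or HD mouse 869 and when centred, adjusted p up to 0.115), and the potassium channel genes Kcnma1 and Kcnip1 fell by 0.36 and 0.41 on the log2 scale. Among 11 regulators of small GTPases, Arhgef12 and Ralgapa1 rose by 1.05 ± 0.20 and 0.86 ± 0.21, and Ralgps1 and Ddef1 (now Asap1) fell by 0.86 and 0.79. The Ralgps1 call was lost without any 1 of the 6 mice and under the quasi-binomial model (adjusted p up to 0.13). Of 7 kinase and phosphatase events, Fgfr2, a growth factor receptor, rose from 29.0% ± 2.43 to 38.9% ± 1.77, and Nek1 at 95.5% in WT did not pass (adjusted p = 0.429). Of 16 events in transcription and chromatin genes Aof2 rose, and Arid4b (adjusted p = 0.059 without the variance trend) and Zmynd11 fell by 0.48 and 0.41. The 235 events in no list had 23 rises and 17 falls.

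In Q150 HOMO mice more long-span events passed with higher than with lower exclusion, as was so over all events. Of 362 events 55 (15.2%) changed, against 23.9% of all events, with 42 (11.6%, against 19.8%) higher and 13 (3.59%, against 4.09%) lower. Shorter-span cassette events had 306 higher and 54 lower of 1358. The median change was 0.14 over the long-span events and 0.19 over all events. Centred on the median event, which removes rises from any group here, 18 of 50 long-span calls were higher. The count fell to 34 without HOMO mouse 1 and to 35 without HOMO mouse 3. By span, 12.4% were called from 15000 to 20000 bp and 10.2%, 18.6%, 20% and 17.95% in the longer bins, against 31.4% under 2500 bp.

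Diap1 led the rises, with 5.37%, 8.78%, 9.33%, 3.86% and 6.32% in WT and 24.55%, 25.05%, 15.98% and 10.4% in HOMO mice, a change of 1.67 ± 0.29 (adjusted p = 0.000225). All HOMO mice lay above the WT mice but they spread widely. Atxn7l4 (now Atxn7l1), an ataxin-7 relative, rose by 1.40 ± 0.32 from 5.71% ± 1.53 to 14.2% ± 3.13. Pcnx rose by 1.36 ± 0.28 and Rbm16 (now Scaf8), which binds the tail of RNA polymerase II, by 1.27 ± 0.27 from 85.7% ± 2.20 to 93.7% ± 0.761. Fgf12 went from 40.5% ± 4.32 to 60.7% ± 3.09 (1.19 ± 0.20, adjusted p = 0.000154). The longer Erc2 event, of 172592 bp, rose by 1.19 ± 0.28 from 36.4% ± 3.73 to 56.5% ± 9.52, while the shorter Erc2 event was at 0.10 (adjusted p = 0.533). Smarca2, an ATPase of chromatin remodelling, rose by 1.16 ± 0.23 from 3.26% ± 0.936 to 6.85% ± 0.700, and Tsga10 by 1.12 ± 0.31 from 21.1% ± 2.62 to 37.7% ± 8.34, the last at an adjusted p of 0.0554 without HOMO mouse 1. In all 8 the groups did not overlap.

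The falls in Q150 HOMO were led by Mipol1, with 40.0%, 61.3%, 34.3%, 35.6% and 38.7% in WT and 18.9%, 14.3%, 28.9% and 22.2% in HOMO mice, a change of -1.43 ± 0.40 (adjusted p = 0.0122, or 0.0806 with all knock-in WT mice). Serp2, of the endoplasmic reticulum, went from 4.06% ± 0.311 to 2.36% ± 0.499 (-0.83 ± 0.17, adjusted p = 0.0012). The 2010300C02Rik exon went from 39.7% ± 3.94 to 27.7% ± 7.90 and was lost without WT mouse 2 or 3 or HOMO mouse 1 or 2 (adjusted p up to 0.124). Ctnna2, the neuronal alpha-catenin of cell junctions, went from 26.6% ± 2.99 to 17.9% ± 4.05 (-0.75 ± 0.18, adjusted p = 0.00442), where R6/2 gave -0.15 (adjusted p = 0.628). Ralgps1, an exchange factor for Ral, went from 6.12% ± 1.31 to 3.69% ± 0.675, and was lost without WT mouse 1, 3 or 4 or HOMO mouse 1, 2 or 3 (adjusted p up to 0.113). Scai, a repressor of an actin-regulated transcription factor, went from 92.0% ± 0.680 to 89.2% ± 0.948, with an adjusted p of 0.0542 without HOMO mouse 3. With the 90-base Nrxn3 exon these are among the 8 largest falls without overlap. App, the amyloid precursor, whose 168-base exon encodes the Kunitz inhibitor domain, fell by 0.60 on the log2 scale from 76.3% ± 4.03 to 68.2% ± 3.08 in groups that overlapped, and was lost with all knock-in WT mice and without the variance trend (adjusted p up to 0.0817).

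Among the lists in Q150 HOMO, where 19.8% of all events rose and 4.09% fell, synaptic scaffold and vesicle genes had 5 rises and no fall in 21 events: Erc2, Rims2 (0.59 ± 0.18, lost without WT mouse 3 or HOMO mouse 1 or 2 and when centred, adjusted p up to 0.132), Rims1 (0.40 ± 0.15, adjusted p = 0.0492), Dlgap1 (0.52 ± 0.13) and Ppfia2 (0.66 ± 0.21, groups overlapping). Adhesion and guidance genes had 4 falls, among them Nrxn3, Ctnna2 and App, and 1 rise, in Ptprt (0.45 ± 0.16, adjusted p = 0.0481, groups overlapping), of 25 events. RNA-binding genes had 3 rises, in Cnot2, Cpeb2 and Eif4g3 (0.32 ± 0.10, in another event than the one that fell in R6/2), and 1 fall, in Rsrc1 (-0.53 ± 0.18, groups overlapping, lost in 5 fits that left out a mouse, adjusted p up to 0.175 over all alternatives), of 13. Ank2 and Diap1 were the rises among 11 cytoskeletal events, Fgfr2 (0.61 ± 0.15, adjusted p = 0.069 when centred) that among 8 kinase events and Smarca2 that among 19 in transcription and chromatin. Arhgef12 and Ralgapa1 rose and Ralgps1 fell among 11 regulators of small GTPases. Channels, receptors and transporters had none of 13 past the threshold. Ralgapa1, which inactivates Ral, had 64.8%, 65.6%, 64.8%, 66.8% and 63.8% in WT and 82.6%, 80.5%, 81.6% and 75.04% in HOMO mice (1.10 ± 0.18, adjusted p = 0.000101).

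In Q150 HET mice 8 of 362 long-span events (2.21%, against 3.47% of all events) changed, 7 with higher exclusion (against 3.03%) and 1 with lower (against 0.448%). The rises were in Tsga10 (1.29 ± 0.31), FAE (now Elovl6, a fatty acid elongase, 1.27 ± 0.34), Diap1 (1.20 ± 0.29), 2210009G21Rik (now Slx4ip, 0.80 ± 0.18), Mtap6 (0.66 ± 0.16), a microtubule-stabilising protein, Cpeb2 (0.62 ± 0.17) and Ank2 (0.44 ± 0.10), and the fall was in Nrxn3. In Tsga10 the HET mice had 43.2%, 42.1%, 39.7% and 36.1% against 18.9% to 25.4% in WT. The count was 0 without HET mouse 1, 4 without HET mouse 2, 3 without HET mouse 3, and 4, 3 and 2 without WT mice 1, 3 and 4.

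In the Q175 line no long-span event of 372 passed in HET mice with limma, against 0.598% of all events, with 24 at an unadjusted p under 0.05 and 2 called by a quasi-binomial model. In Q175 HOMO mice 17 of 372 (4.57%, against 7.07%) changed, 13 with higher exclusion (against 5.60%) and 4 with lower (against 1.47%), and the median change was 0.06. Centred on the median event, 7 of 11 calls were higher. The count was 6, 9 and 6 without HOMO mouse 1, 2 or 3, and 11 and 8 without WT mouse 8 or 9. Ip6k1, an inositol phosphate kinase, had 13.5%, 11.7%, 13.9%, 11.3% and 13.4% in WT and 21.6%, 18.9% and 18.2% in HOMO mice, a rise of 0.73 ± 0.14 (adjusted p = 0.000401) between separate groups. Chka, choline kinase, rose by 0.75 ± 0.24 from 7.06% ± 0.819 to 11.5% ± 2.33, close to the threshold (adjusted p = 0.0461) and lost in 9 fits that left out a mouse (adjusted p up to 0.289 over all alternatives). Gria3 rose from 91.6% ± 1.12 to 94.3% ± 0.191, a call lost with the series of mouse numbers as a term and without the variance trend (adjusted p up to 0.224). Pisd, a mitochondrial enzyme of phospholipid synthesis, fell from 14.9% ± 3.25 to 7.81% ± 1.60 (-1.02 ± 0.28, adjusted p = 0.0156), lost without WT mouse 9 or HOMO mouse 1 or 2 and with all knock-in WT mice (adjusted p up to 0.124). Cpeb4, a relative of Cpeb2, fell from 14.3% ± 0.972 to 11.4% ± 0.574, and Fbxw11, a subunit of a ubiquitin ligase, from 81.1% ± 1.74 to 76.9% ± 1.22, both lost in 6 fits that left out a mouse (adjusted p up to 0.224 and 0.365 over all alternatives).

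In R6/2 HD mice and in the HOMO mice of both knock-in lines, 7 of 335 long-span events tested in all 3 sets (2.09%) passed the threshold in 1 direction, against 4.09% of all events: 6 rises, in Ank2, Arhgef12, Cnot2, Cpeb2, Reps2 and 2210009G21Rik, and the fall of the 90-base Nrxn3 exon. Ank2, whose protein ties membrane proteins to spectrin and whose exon spans 234269 bp, had 21.5%, 24.5% and 21.5% in R6/2 WT and 36.0%, 42.4% and 39.0% in HD. In Q150 it had 26.2% ± 1.85 in WT, 32.5% ± 1.94 in HET and 39.4% ± 0.197 in HOMO mice, and in Q175 24.8% ± 1.70 in WT and 29.8% ± 1.73 in HOMO mice. No mutant mouse of those groups overlapped its WT mice.

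Reps2 went from 4.57% ± 0.638 to 7.44% ± 0.601 in Q150 HOMO and from 4.999% ± 0.341 to 6.93% ± 0.611 in Q175 HOMO mice, with changes of 0.75 ± 0.13 and 0.50 ± 0.11. Cpeb2, with the shortest of the printed exons, went from 8.51% ± 1.16 to 16.1% ± 2.68 and from 7.03% ± 1.64 to 11.1% ± 1.02. In R6/2 its call (adjusted p = 0.0231) was lost without WT mouse 3 or 6 or HD mouse 869 and when centred (adjusted p up to 0.116). Arhgef12, an exchange factor for RhoA, was skipped in most transcripts and went from 89.0% ± 0.445 to 94.3% ± 0.814 in R6/2, from 89.6% ± 1.81 to 93.7% ± 1.05 in Q150 HOMO and from 87.8% ± 1.34 to 92.0% ± 1.07 in Q175 HOMO mice. Slx4ip (2210009G21Rik), named for its binding to the nuclease scaffold SLX4, went from 33.8% ± 2.15 to 52.2% ± 5.86, from 30.9% ± 3.69 to 43.8% ± 5.51 and from 33.3% ± 2.40 to 42.7% ± 4.07. In all of these the groups stayed apart. In Q175 HOMO each of these 6 rises was lost in 1 to 4 fits that left out a mouse, except Reps2. With the series of mouse numbers as a term, in which all Q175 HOMO mice and 2 of 5 WT mice have high numbers, the Q175 HOMO calls of Ank2, Arhgef12, Cnot2 and 2210009G21Rik were also lost (adjusted p up to 0.261 over all alternatives).

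Of 339 long-span events tested in both R6/2 and Q150, 76 passed in R6/2 HD and 54 in Q150 HOMO mice, and 28 passed in both, which is 36.8% of the first and 51.9% of the second. The direction was shared by 27 of the 28, with 21 rises and 6 falls. The other was Pam, an enzyme of peptide amidation chosen here after its values were seen, at -0.54 ± 0.19 in R6/2 (6.91% to 4.87%) and 0.64 ± 0.19 in Q150 HOMO (4.72% to 7.16%). With Q175 HOMO, 12 events were shared with R6/2 (15.8% and 70.6% of each) and 7 with Q150 HOMO (12.96% and 41.2%), all in 1 direction. Over all events tested in both, the shares were 49.7% and 59.0% for R6/2 and Q150 HOMO, 20% and 77.3% for R6/2 and Q175 HOMO, and 19.3% and 62.8% for Q150 and Q175 HOMO. These comparisons share no mice.

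**Figure D5:**
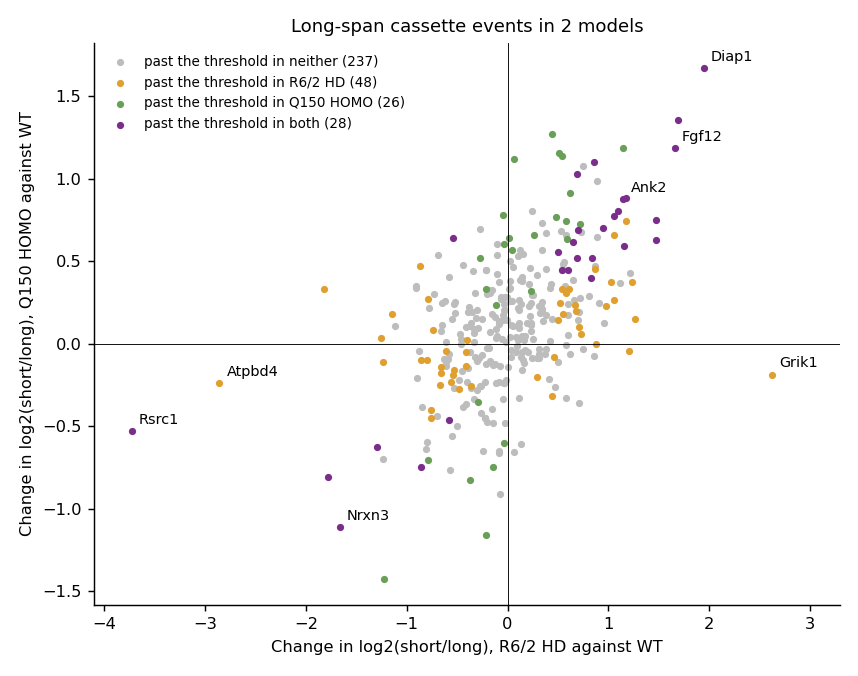
Change in log2(short/long) in Q150 HOMO (y axis) against that in R6/2 HD (x axis), each against its own WT mice, with 1 point per long-span event tested in both sets (n = 339), coloured by which test it passed. The 28 events past the threshold in both lie in the upper right or lower left but for 1, while Grik1 and Atpbd4 lie far out along the R6/2 axis only.

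Tested as a difference of changes, 22 of 335 events differed between R6/2 HD and Q150 HOMO mice (against 9.69% of all events), 27 between R6/2 HD and Q175 HOMO (against 11.6%) and 4 between the HOMO groups of both knock-in lines (against 2.77%). Grik1 rose by 2.81 ± 0.59 more in R6/2 than in Q150 HOMO (adjusted p = 0.0014), where it stood at 31.5% ± 8.46 in WT and 28.5% ± 5.82 in HOMO mice. Rsrc1 differed from both knock-in groups, by amounts that rest on few short-form counts in R6/2 HD mice. The event listed as 1-Mar, a symbol that a spreadsheet has altered, had 23.2% ± 1.73 in R6/2 WT and 12.2% ± 2.86 in HD and differed by -1.33 ± 0.22 from Q150 HOMO. Aof2 rose by 1.11 ± 0.23 more than in Q150 HOMO. Ank2 rose by 0.78 ± 0.16 more in R6/2 than in Q175 HOMO (adjusted p = 0.000602). The 4 events that differed between the HOMO groups were Smarca2 (1.40 ± 0.29), Chka (-1.15 ± 0.28), App (-0.82 ± 0.22) and Ank2 (0.51 ± 0.14), and those of App and Ank2 were lost in 9 and 11 fits that left out a mouse and that of Chka without Q175 HOMO mouse 3 (adjusted p = 0.0616).

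Compared with HET mice, Q150 HOMO mice differed in 6 long-span events of 362 (against 2.18% of all events), 5 of them higher, and Q175 HOMO mice in 2 of 372 (against 0.816%). In Q150 the rises were in Arhgef12 (0.88 ± 0.19), Fgf12 (0.81 ± 0.21), Ralgapa1 (0.77 ± 0.19), Reps2 (0.63 ± 0.14) and Ank2 (0.44 ± 0.11). Arhgef12 HET mice, at 87.9%, 88.3%, 89.6% and 90.03%, lay within the range of WT, and the HOMO mice, at 94.0%, 92.6%, 95.0% and 93.1%, above it. Reps2 did the same, at 4.94% ± 0.550 in HET mice. The count was 0 without HOMO mouse 1, 3 and 1 without HOMO mice 2 and 3, and 1, 3 and 2 without HET mice 1, 2 and 3. In Q175 the 2 events were Gria3 (0.66 ± 0.14, 91.3% ± 1.06 in HET mice) and Diap1 (1.12 ± 0.27, 5.26% ± 0.380 in HET against 11.2% ± 3.87 in HOMO mice). All Q175 HET mice carried low and all HOMO mice high mouse numbers, so number series and genotype cannot be told apart in that pair, and neither event passed with the series as a term.

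Where a gene held more than 1 long-span event, the events could part. Cnot2 had 1 event of 21083 bp that rose and 1 of 31649 bp that fell in R6/2, the latter from 27.5%, 23.5% and 24.3% to 14.6%, 16.8% and 18.7% (-0.75 ± 0.20, adjusted p = 0.0141, or 0.0583 without HD mouse 860). The first event spans the upstream intron of the second exon, which has the same 21083 bp. Its short form therefore keeps the exon that the second event skips, so the 2 calls are not independent choices of exon. With Nrxn3 this was 1 of 2 genes in which events passed in opposite directions in R6/2. Cadm2 and Pcdh9 were among the longest events. Cadm2, an adhesion protein, spanned 737288 bp around a 27-base exon, on 16 to 37 counts in R6/2 WT, and did not pass in any comparison with WT (42.5% ± 12.1 in R6/2 HD against 32.2% ± 7.83). Pcdh9, a protocadherin of 558816 bp, rose in Q150 HOMO from 65.8% ± 3.93 to 74.6% ± 2.35 (0.61 ± 0.14, adjusted p = 0.0037) and was at -0.03 in R6/2, a difference of -0.64 ± 0.20 (adjusted p = 0.0318, lost in 7 fits that left out a mouse).

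At the lower limit of span, the shortest events taken were in 5230400G24Rik (now Mff) and Oscp1, both of 15012 bp, and in 2810474O19Rik (now Resf1), of 15027 bp. In R6/2 the first went from 96.1% ± 1.74 to 95.4% ± 0.767 and Oscp1 from 19.0% ± 4.03 to 26.0% ± 3.43, and in Q150 HOMO mice the third went from 95.4% ± 0.942 to 94.8% ± 3.36. Just outside lay Atp2b3 (14998 bp), a calcium pump, from 45.2% ± 3.64 to 22.3% ± 4.11, Senp7 (14931 bp) from 83.1% ± 3.51 to 87.4% ± 1.89 and Pms1 (14793 bp) from 64.6% ± 5.76 to 69.7% ± 3.70 in R6/2.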

How the data were processed

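RASL-seq counts were measured in the cortex of 31 mice. The deposited tables hold, for each event and mouse, whole-number counts of the short and the long product, written with commas as separators, which the authors had aligned and counted; their aligner settings are not given in the sources used here, and no size correction was present. The labels list mm10, but only 264 of 1878 events lie inside their gene in GRCm38, so no listed position is printed. Groups came from the labels and ages from the study's methods; the knock-in line was taken from the glutamine numbers of the genotypes, since titles and genotypes name different lines, WT mice were placed by the file that holds them, and the numbers of HOMO mice differ from those in the methods. Nothing in the labels names a shared litter or batch, and p-values measure the spread between these mice.

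The measure was log2((short + 0.5)/(long + 0.5)), fitted over all listed events of a set with limma 3.58.1 in R 4.3.3 with a variance trend on counts. P-values were adjusted by Benjamini-Hochberg over all events, with a threshold of 0.05. Errors of changes are SE and of exclusion SD. A minimum mean count of 10 removed no event. Differences between models were fitted over the 3 sets together. Total counts were 2171709 to 4337557 in R6/2, 2970207 to 5219877 in Q150 and 3351064 to 5256516 in Q175, and the lowest listed count of an event was 4. Ligation and amplification carry no molecular identifiers, so precision rests on the mice. No pair of mice had identical counts (0 of 15, 78 and 66 pairs).

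Events were chosen by span alone, but this choice and the gene lists were made with earlier results of these data known. Named events were the largest changes without overlap (8 each way in R6/2 HD and Q150 HOMO, up to 4 in the others), those past the threshold in all 3 models, the smallest adjusted p of the differences, the longest and shortest spans, the neurexins and TDP-43 targets, and 2 per list. Some events that this rule selects are not reported here, though counts include them. Further called list members and Pam were named after their values were seen. The fits were tested on simulated data. Python 3.11.15 was used for tables and figures.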

Additional observations from a re-analysis of the deposited data

Results flagged for a closer look

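Single mice stood apart from their group in 5 of 82 group tests over the named events, where chance gives about 1 in 20. They were all WT mice: Chka at 8.43% in Q175 mouse 10, App at 69.4%, Cpeb2 at 10.6% and Serp2 at 4.61% in Q150 mouse 5, and Mipol1 at 61.3% in Q150 mouse 2. Of the 22 changes that differed between R6/2 HD and Q150 HOMO mice, the 3 with the smallest adjusted p were those of the event listed as 1-Mar (-1.33), Grik1 (2.81) and Rsrc1 (-3.20). Of the 27 that differed between R6/2 HD and Q175 HOMO mice, those with the smallest adjusted p included Rsrc1 (-3.40) and Ank2 (0.78). Of the 4 that differed between the HOMO mice of both knock-in lines, the 3 with the smallest adjusted p were Chka (-1.15), App (-0.82) and Smarca2 (1.40). All are differences of log2 changes by limma, with 3 to 5 mice a group, and line, age and file set cannot be told apart in them. The size of those of Rsrc1 rests on few short-form counts in R6/2 HD mice.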

How the results depend on the processing

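The alternatives were run for the events that the naming rule selects, not for list members named beside them. No call of those events changed sign under any alternative, and of their 118 calls 61 held under every alternative run and 57 were lost under at least 1. In R6/2 22 of 33 held, in Q150 HOMO 18 of 28, in Q175 HOMO 2 of 13 and in Q150 HET 0 of 7. With 1 mouse left out the count of long-span calls ranged from 53 to 67 in R6/2 (76 with all mice), from 0 to 9 in Q150 HET (8), from 34 to 57 in Q150 HOMO (55), from 0 to 4 in Q175 HET (0) and from 6 to 18 in Q175 HOMO (17). It ranged from 0 to 6 for Q150 HOMO against HET (6), from 0 to 2 for Q175 HOMO against HET (2), from 17 to 25 for R6/2 against Q150 HOMO (22), from 20 to 29 for R6/2 against Q175 HOMO (27) and from 1 to 7 between the HOMO groups (4). Those 4 became 2 without Q150 HOMO mouse 3, Q150 WT mouse 1, Q175 HOMO mouse 1 or Q175 WT mouse 9, 1 without Q175 HOMO mouse 3 and 7 without Q150 HOMO mouse 4. The Q175 HOMO against HET count was 1 without HET mouse 2 and 0 without HOMO mouse 3.

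With all knock-in WT mice the counts were 14 in Q150 HET, 1 in Q175 HET and 10 in Q175 HOMO. Centred on the median event they were 4 in Q150 HET, 11 in Q175 HOMO and 1 for Q150 HOMO against HET. Without the variance trend they were 3 in Q150 HET, 5 in Q175 HOMO, 2 for Q150 HOMO against HET, 0 for Q175 HOMO against HET and 2 between the HOMO groups. The quasi-binomial model gave 5 in Q150 HET, 2 in Q175 HET and 7 between the HOMO groups. With the series of mouse numbers as a term there were 15 in Q150 HET, 8 in Q175 HOMO, 10 for Q150 HOMO against HET and 0 for Q175 HOMO against HET. A minimum change of 0.5 left 10 in Q175 HOMO, and a fit of the 2 groups alone gave 3 for Q150 HOMO against HET. The share called was 1.01% in Q150 HET and 2.02% in Q175 HOMO at spans of at least 50000 bp, and 0.179% in Q175 HET at spans of at least 10000 bp.

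The difference in mean exclusion ranged, leaving out 1 mouse, from 0.182 to 0.506 points in R6/2, from 0.516 to 0.719 in Q150 HET, from 1.12 to 1.39 in Q150 HOMO, from 0.0873 to 0.413 in Q175 HET and from 0.434 to 0.697 in Q175 HOMO. As the median over events it was 1.06 points in R6/2, 1.5 in Q150 HET, 1.97 in Q150 HOMO and 1.5 in Q175 HOMO, and as a share of summed counts 0.969 in R6/2 and 0.289 in Q150 HET. The causes of these shifts were not tested. No paired analysis was possible because the titles number each mouse individually, no number recurs between the groups of a set, and the numbers 1 to 10 used here only name the knock-in mice. Events with a mean count under 50, of which there were 17 to 22 long-span ones a set, have the least precise exclusion.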
